A study of Mus musculus with 30 samples.

Results

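The parotid secretory products described here are 5 genes chosen by name, with earlier results of these data known: Amy1, Bpifb1, Dnase1, Prpmp5 and Prp2. Each was found on the array through the platform annotation, which gave 5 of the 18193 genes that had a probe set of their own. Their log2 intensities were read on 30 Affymetrix Mouse Genome 430 2.0 arrays, 1 for each RNA sample of whole salivary gland. The animals were female NOD.H-2h4 mice, a strain used as a model of autoimmune sialadenitis and thyroiditis. At the age of 4 weeks the mice had been given 1 intraperitoneal dose of 20 mg/kg, either of an antibody against CD40L, the T cell ligand that drives B cell responses, or of a human IgG1 isotype control antibody. Glands were taken at week 8, 16 or 24, so that there were 6 groups of 5 arrays, which the labels call biological replicates. All groups share strain and sex, and no group was left without an injected antibody. Which of the 3 major salivary glands went into each sample is not stated in the labels beyond the words total salivary gland.

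The parotid gland is the serous salivary gland, and its acinar cells store their proteins in zymogen granules until nerve signals cause release. Amy1 encodes the amylase that starts starch digestion, and Dnase1 encodes a secreted endonuclease. Bpifb1 belongs to the BPI-fold family of secreted proteins of mouth and airways, and Prpmp5 and Prp2 belong to the proline-rich proteins, which bind tannins of the diet. The submandibular gland, by contrast, is known in rodents for granular duct products such as kallikreins, and the sublingual gland for mucins.

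The start regions of 3 of the genes are shown because they place the 2 proline-rich genes side by side, whose array values then differed, and because mouse Amy1 is known to use a strong start in the parotid gland and a weaker one, also used in liver. RefSeq promoter windows of genome build GRCm38.p6, from 250 bases before to 50 bases after the start, were found for all 5 genes, 8 windows in all. Capitals mark TATAAA, the core of the TATA box, or its reverse complement TTTATA, and each sequence runs 5′ to 3′ on the gene's strand.
Amy1, chr3:113577701-113578000, minus strand: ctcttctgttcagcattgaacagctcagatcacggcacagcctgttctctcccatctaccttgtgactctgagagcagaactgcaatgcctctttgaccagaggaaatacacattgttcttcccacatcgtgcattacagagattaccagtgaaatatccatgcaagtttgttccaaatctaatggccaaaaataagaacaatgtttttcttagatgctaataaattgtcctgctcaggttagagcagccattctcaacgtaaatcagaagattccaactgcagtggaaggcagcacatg
Amy1, chr3:113574713-113575012, minus strand: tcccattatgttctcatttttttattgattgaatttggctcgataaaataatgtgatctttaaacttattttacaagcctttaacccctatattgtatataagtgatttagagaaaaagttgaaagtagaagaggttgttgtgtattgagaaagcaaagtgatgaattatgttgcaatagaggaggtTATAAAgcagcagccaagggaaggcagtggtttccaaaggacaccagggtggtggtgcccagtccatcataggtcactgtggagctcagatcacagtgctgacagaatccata
Prpmp5, chr6:132314694-132314993, minus strand: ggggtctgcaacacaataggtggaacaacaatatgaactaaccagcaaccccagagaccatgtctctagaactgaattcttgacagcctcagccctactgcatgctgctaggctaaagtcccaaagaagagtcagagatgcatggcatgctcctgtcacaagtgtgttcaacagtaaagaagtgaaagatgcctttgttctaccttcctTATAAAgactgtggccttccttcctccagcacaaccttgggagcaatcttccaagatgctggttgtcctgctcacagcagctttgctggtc
Prp2, chr6:132595661-132595960, plus strand: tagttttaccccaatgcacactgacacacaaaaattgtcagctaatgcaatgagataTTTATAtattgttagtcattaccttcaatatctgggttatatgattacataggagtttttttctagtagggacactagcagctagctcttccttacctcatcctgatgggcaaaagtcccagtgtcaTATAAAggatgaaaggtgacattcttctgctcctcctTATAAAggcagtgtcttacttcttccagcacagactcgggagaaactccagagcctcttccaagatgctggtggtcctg

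The upstream Amy1 window held no TATAAA on either strand, and the downstream window held 1, beginning 63 bases before the start. Prpmp5 had 1, beginning 41 bases before the start. Prp2 had 3, of which those on the gene's strand began 66 and 29 bases before the start. The 2 windows of Dnase1, which overlap, held 1 match on the opposite strand, and the 2 windows of Bpifb1 held none. Of 32851 RefSeq promoter windows, 4473 (13.6%) had a match on either strand.

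The proline-rich genes shared the longer run TCCTTATAAAG, which began 45 bases before the start in Prpmp5 and 33 bases before it in Prp2. It was present on either strand in 15 of 32851 windows (0.0457%). The longest run common to their windows was 17 bases, TCTTCCAAGATGCTGGT, past the start in both genes. The other pairs of different genes shared runs of 7 to 12 bases. Both genes lie on chromosome 6 with 6 annotated genes between them, of which Gm8882 and Prh1 code for proteins. These matches are a description of the letters and carry no information on which factor was bound.

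All 5 genes passed the filter on low values (above the median of its own array on at least 5 arrays), as did 12998 genes in all. Array medians lay between 5.487 and 5.537. The 3′ minus 5′ difference, the log2 signal at the 3′ end less that at the 5′ end averaged over the array's Gapdh and actin controls, is a sign of RNA integrity, and it differed between groups. It was 0.20 ± 0.036 (SD, n = 5) after anti-CD40L and 0.406 ± 0.121 in controls at week 24 (two-sided exact permutation test, p = 0.00794, the smallest that 5 against 5 can give; adjusted p = 0.0278 over 7 comparisons). In control glands it was also lower at week 16 than at week 8 (0.291 against 0.566, exact permutation p = 0.0159, adjusted p = 0.037). After anti-CD40L it was lower at week 24 than at week 8 (0.20 against 0.369, exact permutation p = 0.00794, adjusted p = 0.0278). The 5 arrays of lowest median correlation with the others (0.915 to 0.950) were control replicates 3 and 4 and anti-CD40L replicates 1 and 3 at week 8, and control replicate 1 at week 24.

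Amy1 ran from 6.58 to 13.70 over the arrays, with its high values close together and its low values graded. At week 8 the control arrays read 6.58, 13.60, 13.56, 13.52 and 9.51, and the anti-CD40L arrays 13.70, 13.40, 13.23, 13.59 and 13.18, in the order of their replicate numbers. At week 16 the controls read 12.38, 7.93, 8.95, 13.45 and 7.27, and the anti-CD40L arrays 7.34, 12.41, 7.94, 12.21 and 9.41. At week 24 they were 13.64, 8.89, 7.01, 13.51 and 7.65 in controls and 7.34, 13.43, 10.65, 7.65 and 13.07 after anti-CD40L. The widest interval without an array ran from 10.65 to 12.21, with 16 arrays above it and 14 below. The arrays above it were 8 of 10 at week 8, 4 of 10 at week 16 and 4 of 10 at week 24. Every group except anti-CD40L at week 8 had arrays on both sides of it. A further probe set that the annotation assigns to Amy1 together with the neighbouring gene Rnpc3 ran from 5.18 to 6.94 and did not show this split.

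Dnase1 followed Amy1 array by array. At week 8 its control values were 6.91, 13.82, 13.69, 13.67 and 8.60, and its anti-CD40L values 14.07, 13.55, 13.28, 13.89 and 13.29. At week 16 they were 11.85, 7.78, 8.24, 13.60 and 6.55 in controls and 6.44, 12.19, 7.10, 11.41 and 8.73 after anti-CD40L. At week 24 they were 13.86, 8.31, 8.35, 14.01 and 7.35 in controls and 7.17, 13.94, 9.82, 6.27 and 13.06 after anti-CD40L. The 16 arrays above the Amy1 interval were also the 16 highest for Dnase1, at 11.41 or more.

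Bpifb1 had its high and low values on those arrays too. Its week 8 values were 6.18, 13.48, 12.59, 12.62 and 7.70 in controls and 13.78, 12.95, 12.46, 13.61 and 12.63 after anti-CD40L. The week 16 values were 9.91, 6.34, 8.12, 13.07 and 6.06 in controls and 5.96, 10.47, 6.62, 9.32 and 7.38 after anti-CD40L. The week 24 values were 12.81, 6.40, 6.28, 13.78 and 5.84 in controls and 5.87, 13.68, 8.02, 5.97 and 12.27 after anti-CD40L. The 16 arrays with high Amy1 were again its 16 highest, at 9.32 or more against at most 8.12 on the others. A second Bpifb1 probe set had the same 16 arrays highest and ranged from 3.56 to 13.30.

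Prpmp5 was near the floor on most arrays. Its week 8 values were 3.61, 9.04, 7.14, 7.04 and 3.57 in controls and 9.10, 6.94, 3.99, 8.57 and 7.25 after anti-CD40L. At week 16, control replicate 4 read 7.65, the other 9 arrays 3.28 to 4.05. At week 24, control replicates 1 and 4 read 8.35 and 6.28 and anti-CD40L replicate 2 read 8.46, while the other 7 arrays read 3.28 to 4.35. It exceeded the array median on 11 arrays, 7 of them at week 8, 1 at week 16 and 3 at week 24. The 11 arrays were all among those with high Amy1, and Bpifb1 was 12.59 or more on each. Another 2 probe sets that the annotation assigns to Prpmp5 together with Prb1 and other genes stayed between 3.87 and 4.73 and passed the array median on none of the 30 arrays.

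Prp2 did not go with the other 4 genes. At week 8 it read 7.68, 9.46, 5.75, 5.83 and 7.46 in controls and 7.89, 7.77, 6.86, 7.34 and 8.18 after anti-CD40L. At week 16 it read 7.33, 7.88, 7.67, 7.10 and 7.40 in controls and 7.70, 8.44, 8.13, 10.33 and 8.09 after anti-CD40L. At week 24 it read 5.82, 6.94, 5.53, 5.90 and 7.07 in controls and 7.69, 8.80, 7.65, 7.53 and 7.78 after anti-CD40L. Only 8 of the 16 arrays with high Amy1 were among its 16 highest. Its 5 lowest values, all under 6, came from control replicates 3 and 4 at week 8 and control replicates 1, 3 and 4 at week 24, and 3 of these were among the 5 arrays of lowest correlation. The name parotid secretory product is therefore used for the array pattern shared by Amy1, Bpifb1, Dnase1 and Prpmp5, and Prp2 is reported under its own name. In whole tissue, fewer cells of a type and less RNA per cell cannot be told apart.

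**Figure D1:**
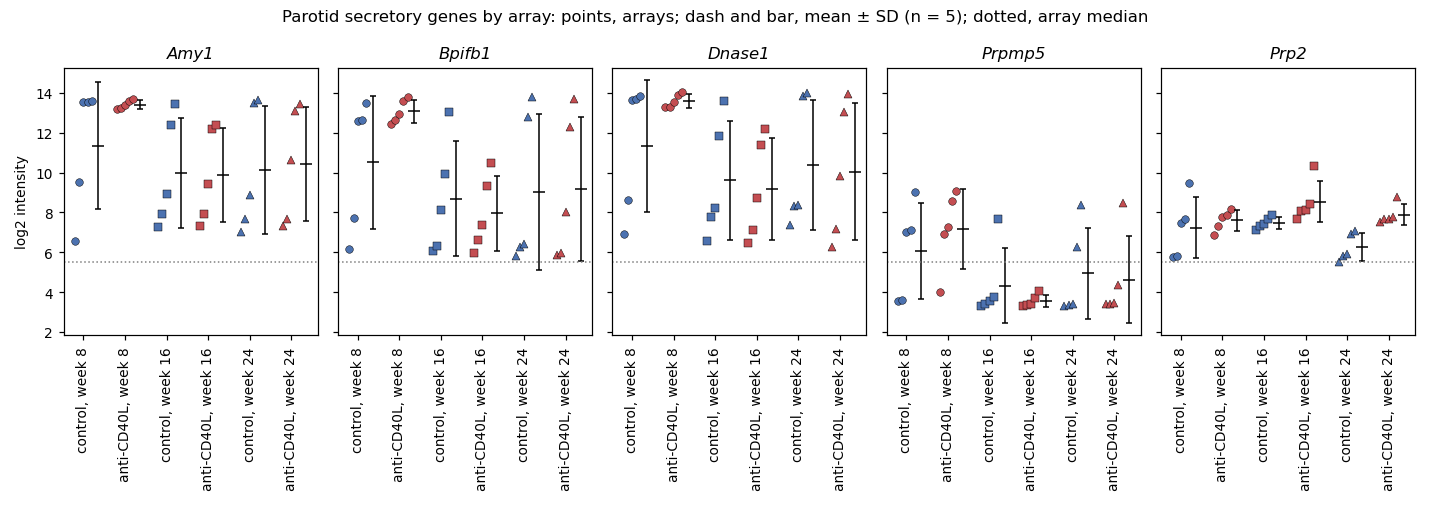
Log2 intensity of the 5 genes (vertical axis) in the 6 groups (horizontal axis, blue control, red anti-CD40L). Points are arrays, the dash and bar give the mean ± SD (n = 5), and the dotted line is the median of the array medians. In 5 of the 6 groups Amy1, Bpifb1 and Dnase1 have both high and low arrays, the low ones graded, while Prp2 lies between 5.53 and 10.33.

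The spread within groups was far above that of a typical gene. The within-group SD was 2.65 for Amy1, 2.94 for Bpifb1, 2.86 for Dnase1, 1.97 for Prpmp5 and 0.87 for Prp2, against a median of 0.22 over all genes tested. Group membership accounted for 21.6%, 29.0%, 24.9%, 31.2% and 44.1% of their variation, in the same order, against a median of 44.9% over all genes. For 3 of the genes the anti-CD40L arrays at week 8 lay close together, with an SD of 0.22 for Amy1, 0.58 for Bpifb1 and 0.36 for Dnase1. In the control group of the same week those SDs were 3.20, 3.32 and 3.33. The high readings of Amy1 and Dnase1, up to 13.70 and 14.07, lie near the highest value of the whole table, 14.457, and whether the array could resolve differences there was not tested.

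Each gene was set against the mean of the other 4, each centred on its own mean, over the 30 arrays. The Pearson and Spearman values were 0.956 and 0.931 for Amy1, 0.975 and 0.939 for Bpifb1, 0.963 and 0.916 for Dnase1 and 0.824 and 0.90 for Prpmp5. They were -0.0373 and 0.0229 for Prp2. The Amy1 interval divided the arrays into 2 clusters, and correlations were tested within each cluster, by 100000 permutations, adjusted over the family of 20. The cut came from Amy1, itself among the genes tested, and group means were not removed. The genes were chosen with earlier results of these data known, so these p-values give no independent support for their likeness. Among the 16 high arrays Amy1 and Dnase1 had r = 0.983 (rho = 0.868, both adjusted permutation p at most 5e-04) and Amy1 and Prpmp5 had r = 0.837 (rho = 0.821, adjusted permutation p at most 0.00127). Without the 2 arrays farthest from the median these r were 0.964 and 0.799. Among the 14 low arrays Amy1 and Bpifb1 had r = 0.850 (rho = 0.754, adjusted permutation p at most 0.00751), and 0.737 without the 2 farthest. Prpmp5 gave no pair past adjusted p = 0.05 there, and no pair with Prp2 passed it in either cluster.

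**Figure D2:**
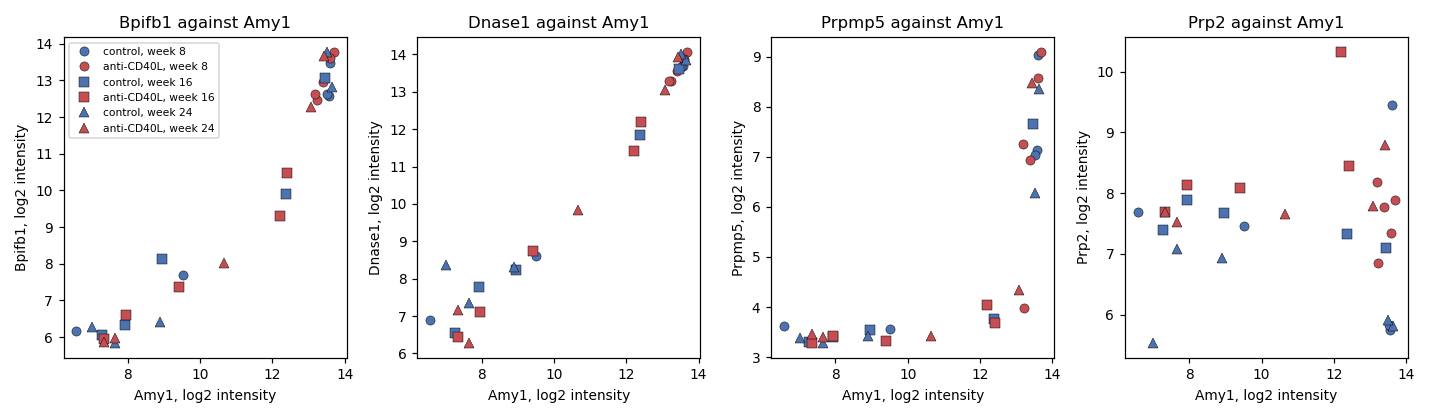
Log2 intensity of Bpifb1, Dnase1, Prpmp5 and Prp2 (vertical axes) against that of Amy1 (horizontal axes), 1 point per array, coloured by treatment and shaped by week. Bpifb1 and Dnase1 climb along Amy1, Prpmp5 exceeds 4.35 on 11 arrays at the top of the Amy1 range, and Prp2 has no order along it.

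The genes whose pattern was most like the mean of the 5 were salivary products as well. They were Smr3a (Pearson 0.967, Spearman 0.958), a gene of the submaxillary gland androgen-regulated family, Cst10 (0.966, 0.938), a cystatin, Chia1 (0.956, 0.942), an acidic chitinase, and Bpifa2 (0.940, 0.956), the parotid secretory protein. Smr3a had been placed on the list of submandibular and sublingual products. The other measured genes of that list had Pearson values from -0.32 for Smr2 to 0.34 for Dcpp1. Smr3a ran from 4.76 to 13.97, Cst10 from 5.10 to 14.04, Chia1 from 4.86 to 14.07 and Bpifa2 from 8.40 to 13.71. On all 4 the 16 arrays with high Amy1 were the 16 highest. The next were Cldn22, a claudin, at 0.874, Ggh, a gamma-glutamyl hydrolase, at 0.869, Csn3, kappa-casein, at 0.862 and Gm9112 at 0.855. The 4 genes with the lowest values were Afg1l (-0.80), Tsn (-0.79), Fbxw11 (-0.77) and Lias (-0.76). By the distance from lowest to highest array, Chia1, Smr3a and Cst10 ranked 1, 2 and 3 of 12998 genes, followed by Bpifb1 (7.94) and Dnase1, with Amy1 at rank 8 (7.12), Prpmp5 at 22 and Prp2 at 51. The median distance over all genes was 1.14.

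Of the 10 genes on the list of other serous gland products 8 were measured, and Bpifa2 and Cst10 went with the parotid products. Azgp1, zinc-alpha-2-glycoprotein, was intermediate, with a likeness (Pearson value with the mean of the 5 genes, Prp2 included) of 0.60 and a range from 6.14 to 8.25. Car6, the secreted carbonic anhydrase, stayed between 14.03 and 14.19, with a likeness of -0.35. Lpo, lactoperoxidase, ran from 11.03 to 13.02 and Pip, prolactin-inducible protein, from 13.34 to 13.89, with likenesses of -0.27 and 0.06. Lman1l and Pigr had likenesses of 0.00 and -0.18. The Car6 values, too, lie close to the highest value of the table. Of the pancreatic acinar enzymes, which Amy1 could be taken to stand for, 8 of 12 were measured, and their mean ran only from 5.16 to 5.71 over the arrays. Cela3b and Prss2 exceeded the array median on all 30 arrays, Ctrb1 on 20, Cela1 on 11, Cpa1 on 7, and Cpb1, Cela2a and Cel on none. Their likenesses to the mean of the 5 genes lay between 0.09 and 0.47. The probe set shared by the pancreatic amylase genes ran from 3.27 to 5.95 and exceeded the array median on 3 arrays.

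**Figure D3:**
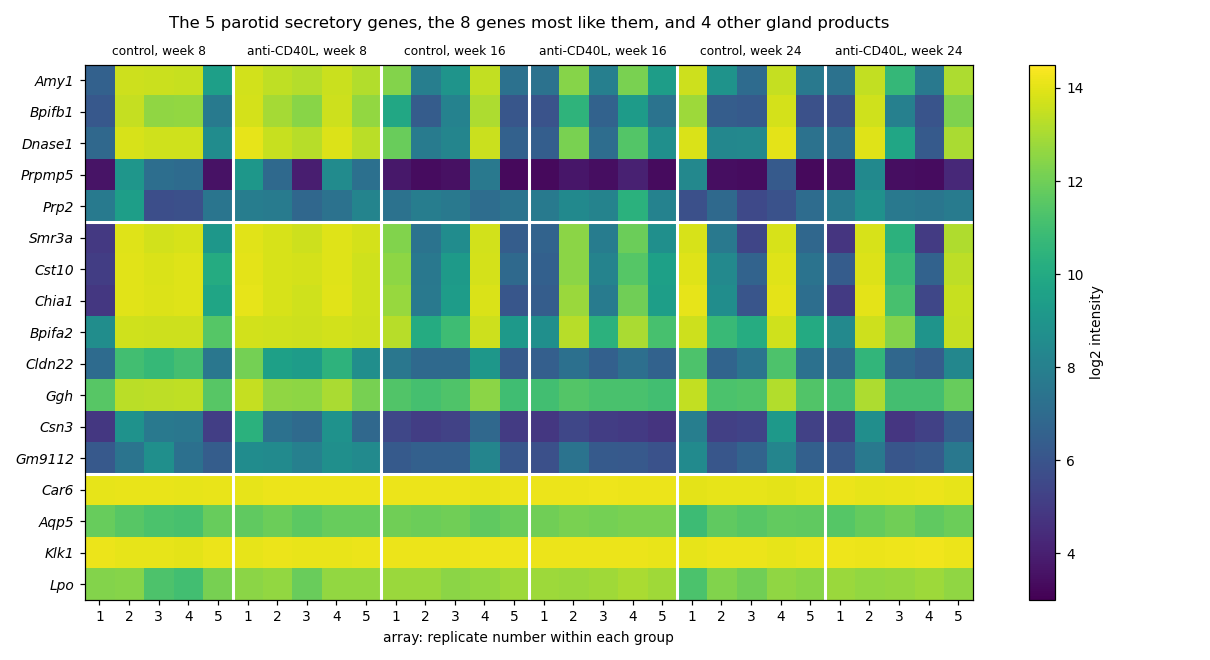
Log2 intensity (colour) of the 5 genes, the 8 genes most like them and 4 other gland products (rows) on the 30 arrays (columns, replicates 1 to 5 in each of the 6 groups). Smr3a, Cst10, Chia1 and Bpifa2 are bright on the same arrays as Amy1, Bpifb1 and Dnase1, whereas Car6 and Klk1 are bright on all.

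The first comparison asks whether the antibody was followed by a change of these genes at each week. At week 8 Amy1 averaged 13.42 ± 0.22 (SD, n = 5) after anti-CD40L and 11.36 ± 3.20 in controls. None of the 5 genes passed the limma test at week 8, where 0.0692% of all genes tested did, and none had an unadjusted limma or exact permutation p under 0.05. The differences, treated minus control on the log2 scale, were 2.06 ± 1.55 (SE; 95% interval -1.11 to 5.24) for Amy1, 2.57 ± 1.72 for Bpifb1, 2.28 ± 1.67 for Dnase1, 1.09 ± 1.15 for Prpmp5 and 0.37 ± 0.51 for Prp2, with adjusted p from 0.470 to 0.759. Control replicates 1 and 5 were the low arrays, and the other 3 controls lay within the treated range of Amy1, Bpifb1, Dnase1 and Prpmp5. For Amy1 the interval reached from a lower to a much higher level after treatment.

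At week 16 again none passed, where 1.88% of all genes did, and Prp2 alone had an unadjusted p under 0.05, by limma and by the exact permutation test. Amy1 differed by -0.13 ± 1.55 (95% interval -3.31 to 3.04), Bpifb1 by -0.75 ± 1.72, Dnase1 by -0.43 ± 1.67 and Prpmp5 by -0.77 ± 1.15, with adjusted p of 0.840 or more. Prp2 differed by 1.06 ± 0.51 (adjusted p = 0.332; unadjusted two-sided exact permutation p = 0.0159), and its groups overlapped, with treated replicate 1 at 7.70 below control replicate 2 at 7.88.

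At week 24 Prp2 was higher after anti-CD40L, by 1.64 ± 0.51 (95% interval 0.59 to 2.68; limma, adjusted p = 0.0431). It averaged 7.89 ± 0.52 (SD, n = 5) after anti-CD40L and 6.25 ± 0.70 in controls, and the groups did not overlap, the lowest treated array reading 7.53 and the highest control 7.07. Among all genes tested 5.96% were called higher in this comparison, and 6.37% were higher with no overlap. The call was lost in 8 of the 10 fits that left out 1 array, with an adjusted p of up to 0.141, while the difference stayed between 1.41 and 1.84 in all 10. The arrays whose loss ended it were control replicates 1, 3 and 4 and every anti-CD40L replicate.

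The 3′ minus 5′ difference moved with this result. With that difference as a covariate, chosen after seeing the data, the Prp2 difference was 0.88 (adjusted p = 0.60). Over the 30 arrays Prp2 and the 3′ minus 5′ difference had r = -0.506 (permutation p = 0.00519, adjusted p = 0.0208 over 5 genes) and rho = -0.452 (permutation p = 0.0134, adjusted p = 0.0314). Without the 2 arrays farthest from the median r was -0.32, and after removing group means r was -0.461. Within the clusters of Amy1, Prp2 had r = -0.61 (rho = -0.635) on the 16 high arrays and r = -0.341 (rho = -0.279) on the 14 low arrays, and neither passed after adjustment over 10 relations (adjusted permutation p of 0.0959 or more). The other 4 genes also passed over all 30 arrays by Pearson's r, with the opposite sign (r from 0.411 to 0.448, adjusted permutation p = 0.0208 each). After removing group means their r ran from 0.304 for Prpmp5 to 0.498 for Amy1. Their levels differ between the 2 clusters. Within the clusters their r ran from -0.107 to 0.424, and the highest rho was 0.556, for Amy1 on the high arrays. None passed there (adjusted permutation p of 0.139 or more). The part of RNA integrity in the Prp2 difference was not tested further. B cell genes also differed at week 24: 7 of the 8 tested were called lower after anti-CD40L than in controls, where 3.49% of all genes were. Their median difference was -1.58, against 0.03 over all genes. T cell genes differed the same way, with 5 of 6 tested called lower and a median of -1.92. From week 8 to week 24 the median change of the B cell genes was 1.46 in controls and -0.16 after anti-CD40L. For the T cell genes it was 1.64 and -0.06, and over all genes 0.05 and 0.09. The mean of the 11 B cell genes measured ran from 5.62 to 7.30 in week 24 controls and from 4.92 to 5.18 after anti-CD40L. For the 8 T cell genes measured the mean ran from 5.62 to 7.36 and from 4.77 to 5.52. Their part in the Prp2 result was not tested.

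**Figure D4:**
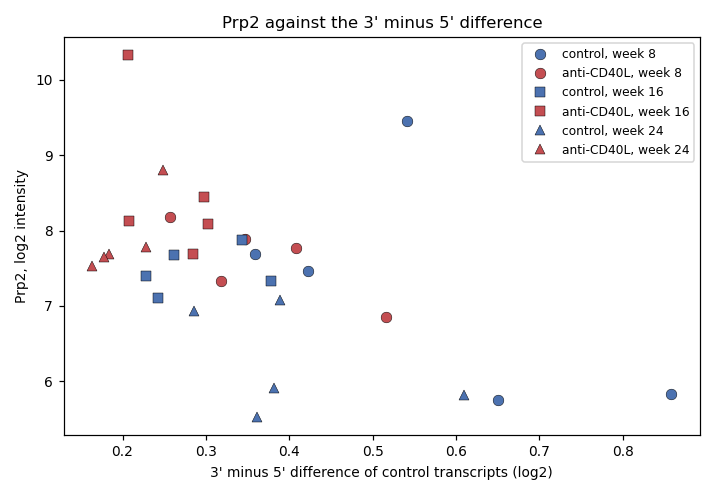
Log2 intensity of Prp2 (vertical axis) against the control transcripts' 3′ minus 5′ difference (horizontal axis, log2), 1 point per array. The week 24 anti-CD40L arrays lie at the left, between 7.53 and 8.80, and the week 24 controls to their right, between 5.53 and 7.07.

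The other 4 genes did not pass at week 24, where 9.46% of all genes were called in either direction. Amy1 differed by 0.29 ± 1.55 (95% interval -2.88 to 3.46), Bpifb1 by 0.14 ± 1.72, Dnase1 by -0.32 ± 1.67 and Prpmp5 by -0.32 ± 1.15, with adjusted p of 0.874 or more. Each group had arrays at both ends of the range. Intervals of this width do not show that the treatments acted alike.

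The second comparison asks how the genes differed between weeks. In control glands none of the 5 passed between week 8 and week 16, where 46.5% of all genes did, or between week 8 and week 24, where 12.5% did, and none had an unadjusted limma or exact permutation p under 0.05. Amy1 differed by -1.36 ± 1.55 and -1.22 ± 1.55, Prpmp5 by -1.75 ± 1.15 and -1.14 ± 1.15 and Prp2 by 0.24 ± 0.51 and -0.98 ± 0.51, at weeks 16 and 24. For Bpifb1 the values were -1.82 ± 1.72 and -1.49 ± 1.72 and for Dnase1 -1.73 ± 1.67 and -0.96 ± 1.67. The lowest adjusted p was 0.196, for Prp2 at week 24. Without the 5 arrays of lowest correlation, chosen after seeing the data, Prp2 was lower at week 24 by -1.84 (adjusted p = 0.0209).

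After anti-CD40L, 3 of the 5 genes fell from week 8 to week 16, where 12.5% of all genes tested were called lower. Bpifb1 fell by 5.14 ± 1.72 (SE, n = 5 per group; limma, adjusted p = 0.0222), Dnase1 by 4.44 ± 1.67 (adjusted p = 0.0389) and Prpmp5 by 3.62 ± 1.15 (adjusted p = 0.0173). All 5 week 16 arrays of Prpmp5 lay below their own array medians, where the table gives no detection call, so the size of its fall is uncertain and may be understated. Amy1 differed by -3.56 ± 1.55 and missed the threshold (adjusted p = 0.07). Its groups did not overlap, the highest week 16 array reading 12.41 and the lowest week 8 array 13.18 (exact permutation p = 0.00794). The groups of Bpifb1 and Dnase1 did not overlap either, as held for 8.09% of all genes on the lower side. Bpifb1, Dnase1 and Prpmp5 also had an unadjusted exact permutation p under 0.05. Prp2 differed by 0.93 ± 0.51 (adjusted p = 0.146).

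The adjusted p of these falls was close to the threshold, and leaving out 1 array could end the call at a similar size of fall. Without anti-CD40L replicate 1 of week 8, none of the 5 genes passed, and without replicate 1 of week 16, 1 did. The difference stayed between -5.77 and -4.64 for Bpifb1 and between -4.41 and -3.13 for Prpmp5 over the 10 fits that left out 1 array. Dnase1 passed in 3 of the 10 fits that left out 1 array, Bpifb1 in 8 and Prpmp5 in 9. The call of Dnase1 was also lost without replicate 2, 3 or 4 of week 8 and without replicate 3 or 5 of week 16, where its differences ran from -5.19 to -3.76 over all 10 fits. With the 3′ minus 5′ difference as a covariate none passed, at -3.78 for Bpifb1, -3.02 for Dnase1 and -3.01 for Prpmp5, with adjusted p of 0.0856, 0.148 and 0.0583.

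From week 8 to week 24 after anti-CD40L none of the 5 passed, where 23.6% of all genes did. Bpifb1, Dnase1 and Prpmp5 had an unadjusted limma p under 0.05, and Amy1 an exact permutation p under 0.05. Amy1 differed by -2.99 ± 1.55 (adjusted p = 0.15), Bpifb1 by -3.92 ± 1.72 (0.0906), Dnase1 by -3.56 ± 1.67 (0.113), Prpmp5 by -2.55 ± 1.15 (0.101) and Prp2 by 0.28 ± 0.51 (0.699). Without anti-CD40L replicate 2 of week 24, an array with high Amy1, 2 genes passed. With the 3′ minus 5′ difference as a covariate, which itself differed between these groups, the differences were -0.95 for Amy1, -1.83 for Bpifb1, -1.37 for Dnase1 and -1.62 for Prpmp5. Its part in these differences was not tested further. The comparisons of week 16 and week 24 use the same week 8 arrays.

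**Figure D5:**
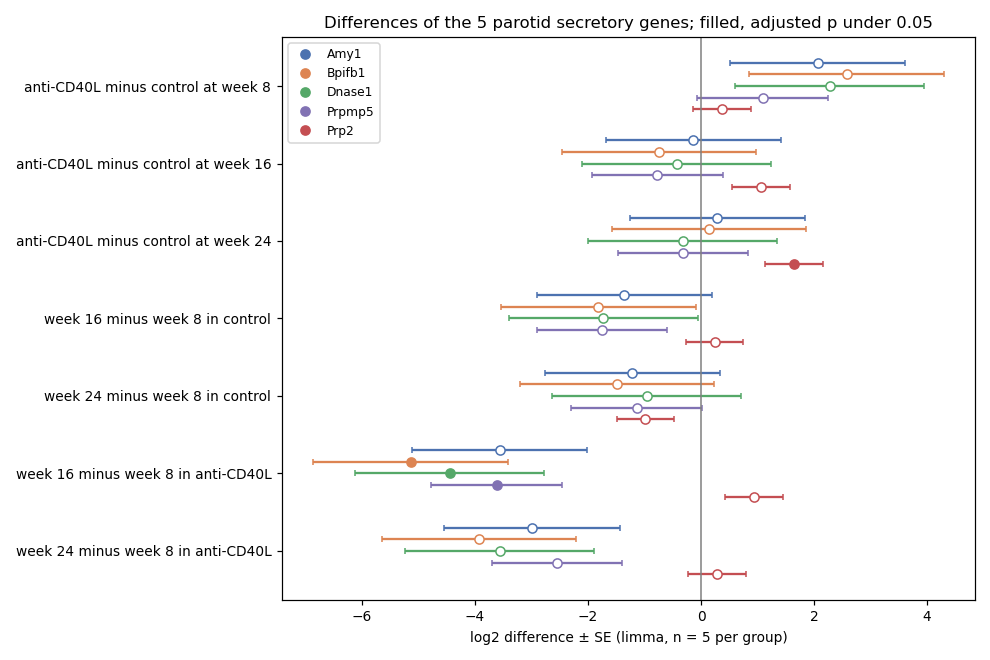
Log2 differences (horizontal axis, ± SE from limma, n = 5 per group) of the 5 genes in 7 comparisons (vertical axis). Filled points have an adjusted p under 0.05: Bpifb1, Dnase1 and Prpmp5 from week 8 to week 16 after anti-CD40L, and Prp2 between treatments at week 24.

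Whether the treatment difference itself changed between weeks was tested as an interaction. None of the 5 genes passed from week 8 to week 16, where 0.146% of all genes did, or from week 8 to week 24, where 0.00769% did, and none had an unadjusted p under 0.05. For Bpifb1 the changes were -3.32 ± 2.43 and -2.43 ± 2.43, and for Prp2 they were 0.69 ± 0.72 and 1.27 ± 0.72, with adjusted p of 0.584 or more. The falls after anti-CD40L were therefore not shown to differ from the changes in control glands.

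Ordered by mean, the groups ran alike in Amy1 and Bpifb1: anti-CD40L week 8 at the top, then control week 8, anti-CD40L week 24, control week 24, control week 16 and anti-CD40L week 16. Dnase1 and Prpmp5 had control week 24 above anti-CD40L week 24 and the other places the same. Prp2 ran from anti-CD40L week 16 at 8.54 through anti-CD40L week 24 at 7.89 and anti-CD40L week 8 at 7.61 to control week 16 at 7.48, control week 8 at 7.24 and control week 24 at 6.25. In none of the 5 genes did neighbouring groups differ beyond their spread (25 exact permutation tests, lowest p = 0.119, lowest adjusted p = 0.967), and the ranges of neighbouring groups always overlapped.

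Other genes of the secretory pathway were counted over whole lists. Of 11 acinar identity and fluid secretion genes tested, 1 was higher after anti-CD40L than in controls at week 24 and none was lower, with a median of 0.30 against 0.03 over all genes. From week 8 to week 16, 5 of the 11 rose after anti-CD40L, where 24.1% of all genes were called higher. In controls 8 of the 11 rose over the same weeks, where 28.4% of all genes did, and none fell in either. The likenesses of the acinar genes to the mean of the 5 genes lay between -0.46 and 0.12. Aqp5, the water channel of acinar cells, at -0.27, did not follow that mean. Of 10 factors tested that are known from acinar genes, 4 were called higher after anti-CD40L than in controls at week 24. They were Bhlha15 (0.77 ± 0.19, limma, adjusted p = 0.0134), Sox10 (0.75 ± 0.19, 0.0189), Sox9 (0.70 ± 0.21, 0.0399) and Elf5 (0.68 ± 0.12, 0.00197). Bhlha15 is also the 1 gene called on the acinar identity list. Of 10 striated and intercalated duct genes tested, 4 were called higher too, with a median of 0.41 against 0.03 over all genes. In that comparison 5.96% of all genes were called higher. The 3′ minus 5′ difference was lower after anti-CD40L, as given above, and its part in these differences was not tested. Bhlha15 drives the mature secretory state of acinar cells, and its likeness was -0.26. None of the 10 granular duct products measured passed between treatments at any week, and their mean ran from 12.43 to 13.31. All 10 had a likeness below 0, from -0.63 for Klk1b11 to -0.30 for Klk1b8. In controls 7 of the 10 rose from week 8 to week 16, where 28.4% of all genes were called higher, and 1 to week 24. After anti-CD40L none passed from week 8 to week 16, and 6 rose from week 8 to week 24, where 16.5% of all genes were called higher. Their part in the parotid results was not tested.

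From week 8 to week 16 after anti-CD40L, the list of other serous products had 1 gene called higher and 1 called lower of 8, with a median of 0.00 against 0.09 over all genes, of which 24.1% were called higher and 12.5% lower. Pigr, the receptor that carries IgA into saliva, rose by 0.77 ± 0.22 (adjusted p = 0.0096), and by 0.84 ± 0.22 (adjusted p = 0.00344) over the same weeks in controls. Azgp1 fell by 0.90 ± 0.26 (adjusted p = 0.00967), and differed by -0.62 ± 0.26 (limma, adjusted p = 0.052) over the same weeks in controls. Cst10 and Bpifa2 differed by -4.21 ± 1.79 (adjusted p = 0.0643) and -2.34 ± 1.12 (adjusted p = 0.0974).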

How the data were processed

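The deposited table holds log2 intensities of 45101 probe sets, read as log2 from their range of 2.757 to 14.457, since its header states no scale. The authors' processing notes name limma. The methods of summarisation, normalization and background correction are not given in the sources used here. Values were used as they stand. Probe sets that the platform table gives to exactly 1 gene were used (34945; 932 name several genes and 9160 none), and a gene was represented by its probe set of highest mean over the 30 arrays. Genes above the array median on at least 5 arrays were tested (12998).

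All 30 arrays entered 1 limma fit (version 3.58.1, R 4.3.3) of 6 group means, with 9 contrasts, empirical Bayes moderation and Benjamini-Hochberg adjustment over the genes tested. Calls have an adjusted p under 0.05. Nothing in the labels says that replicates came from separate litters or cages. Depth has no meaning for arrays, and the number of arrays limits precision. Exact permutation tests were two-sided. The named genes were the 5 members, the 8 genes most like and the 4 least like their mean, and the members of 12 lists by level or size of change. The members and lists were chosen with earlier results of these data known. In no comparison did the deviations of all 5 same-numbered pairs correlate above 0.1. The most was 2 of 5, between treatments at week 8 (highest 0.40) and between weeks 8 and 16 in controls (highest 0.37). A bar that all 5 pairs must pass cannot exclude pairing. The alternatives changed normalization, centring, filter, probe set, arrays, weights, prior and pairing.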

Additional observations from a re-analysis of the deposited data

Results flagged for a closer look

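Each of the 5 genes was examined in each of the 6 groups for an array set apart from the other 4. An array counted as set apart where its gap to the next exceeded 0.71 of the group's range. Such an array was found in 4 of the 30 sets, and the nominal rate is about 1 in 20 for normal and independent sets. The genes share arrays and Prpmp5 was near the floor on most of them, so that rate need not apply here. Prpmp5 read 7.65 in control replicate 4 at week 16 and 8.465 in anti-CD40L replicate 2 at week 24, arrays on which Amy1 read 13.45 and 13.43. Prp2 read 10.327 in anti-CD40L replicate 4 at week 16 and 8.799 in anti-CD40L replicate 2 at week 24.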

How the results depend on the processing

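The counts of genes called were recomputed under 11 other settings and with each array left out. The Prp2 call at week 24 was lost under quantile normalization (0 called, difference 1.58, adjusted p = 0.0503), with no filter (0 called, difference 1.64, adjusted p = 0.0519) and with the 3′ minus 5′ difference as a covariate (0 called), and leaving out 1 array gave 0 to 1 called. For week 16 against week 8 after anti-CD40L, 3 were called. Leaving out 1 array gave 0 to 3, leaving out the 5 arrays of lowest correlation gave 1, and the covariate gave 0. For week 24 against week 8 after anti-CD40L, array weights gave 1 and leaving out 1 array gave 0 to 2. For week 24 against week 8 in controls, the fit without the 5 arrays gave 1. The cause of these changes was not tested. Fitting only the arrays compared or using array weights brought Amy1 below the threshold for week 16 against week 8 after anti-CD40L (adjusted p = 0.00984 and 0.0361), and a robust and trended prior took Dnase1 above it (0.0551). The replicate numbers do not pair the samples. The fit with the replicate number as a block gave 1 call at week 24 (Prp2, adjusted p = 0.0318) and 3 for week 16 against week 8 after anti-CD40L, and changed no count.

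The sign turned in 52 of 1080 single-gene values, none of them called before or after. With array weights, the treatment difference became -0.28 for Prp2 at week 8, 0.18 for Amy1 at week 16, and 1.44 for Dnase1 and 0.39 for Prpmp5 at week 24. The week 16 change in controls became -0.43 for Prp2, and the change of the treatment difference to week 24 became 0.22 for Amy1. Without the 5 arrays of lowest correlation, the treatment difference became -0.44 for Prp2 at week 8, and 0.55 for Dnase1 and 0.53 for Prpmp5 at week 24. The week 16 change in controls became 0.10 for Amy1 and -0.73 for Prp2. With the 3′ minus 5′ covariate, the treatment difference became -0.36 for Prp2 at week 8, 0.24 for Amy1 at week 16, and 2.34 for Dnase1 and 0.80 for Prpmp5 at week 24. The changes in controls became 1.97 for Amy1, 1.60 for Bpifb1, 1.84 for Dnase1 and -0.77 for Prp2 at week 16, and 0.73 for Amy1, 0.50 for Bpifb1 and 1.13 for Dnase1 at week 24. The week 24 change after anti-CD40L became -0.34 for Prp2.

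Leaving out 1 array turned the sign of 29 single-gene values, which belonged to 10 pairs of gene and comparison. The treatment difference at week 16 ran from -0.82 to 0.73 for Amy1, -1.41 to 0.34 for Bpifb1, -1.19 to 0.57 for Dnase1 and -1.03 to 0.055 for Prpmp5. At week 24 it ran from -0.49 to 1.16 for Amy1, -0.99 to 1.33 for Bpifb1, -1.29 to 0.62 for Dnase1 and -1.28 to 0.53 for Prpmp5. For Prp2 it ran from -0.0027 to 0.92 at week 8, and the week 16 change in controls from -0.13 to 0.79.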
